A study of Homo sapiens with 4 samples.

Results

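The genes described here are the translation initiation and elongation factors of U937 cells, an established human myeloid line derived from a histiocytic lymphoma, compared with and without exposure to phorbol 12-myristate 13-acetate (PMA), an activator of protein kinase C. Members were chosen by symbol alone: entries beginning EIF1 to EIF6, EEF1 or EEF2. Left out were the eIF2 alpha kinases, symbols beginning EEF2K, and symbols that end in P and a number, as pseudogenes do. That gave 61 of the 60662 entries in the deposited count table. Besides eEF2 kinase, the beginning EEF2K took out EEF2KMT, an eEF2 methyltransferase. The ending in P and a number also left out EIF4EBP1, EIF4EBP2 and EIF4EBP3, which are no pseudogenes and are described further down with the control genes. The 4 libraries were U937 cells of lot 1 and lot 2 kept for 72 h without PMA and U937 cells of lot 1 and lot 2 kept for 72 h in 10 nM PMA, which the study used to obtain macrophage-like cells. Each library was made from poly(A)-enriched RNA. The labels give no further allele, agent or clone, and nothing in them says whether the lots were cultured separately, so a p-value here reflects only how far these libraries lie apart, which could be technical.

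Initiation factors bring the methionyl initiator tRNA, the small ribosomal subunit and the capped mRNA together, find the start codon and let the large subunit join. Elongation factors then deliver each aminoacyl-tRNA and move the ribosome by one codon at a time. Many mRNAs of the translation machinery start with a C and a run of pyrimidines, the terminal oligopyrimidine tract, through which the kinase mTOR is known to control their translation; myeloid precursors are known to divide less and make more secreted and lysosomal protein when they become macrophage-like.

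Start-site sequences are shown first, because the factors differ in this feature and the results below can be read against it. RefSeq (GRCh38.p14) gave start windows for 49 of the 61 factors by symbol. No window was matched for EEF1A2, EEF1AKMT1, EEF1AKMT3, EEF1AKNMT, EEF1D, EIF2S2, EIF3A, EIF3CL, EIF3E, EIF3G, EIF3H and EIF3L. Each line gives 30 bases before the start and 20 from it, 5′ to 3′ on the gene's own strand, with the start base and the unbroken run of pyrimidines after it in capitals. The first 8 genes have a C at the start and at least 4 pyrimidines after it. EIF5, EIF4G2 and EIF4E do not and were picked because both of their PMA libraries lay above both untreated ones. They do not stand for all factors without such a start: of 34 tested, both PMA libraries lay below in 17 and above in 6. Of the 13 factors with it, 9 lay below, 0 above and 4 overlapped. EEF1A1 is the only 1 of those 4 shown. Over all tested genes with a window, both PMA libraries lay below in 38.6% with such a start and in 28.5% without it. Over all genes tested, 29.4% lay below and 31% above. The difference by start was not tested.
EEF1A1 (chr6:73521013-73521062, minus strand): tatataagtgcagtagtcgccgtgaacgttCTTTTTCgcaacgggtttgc
EEF2 (chr19:3985444-3985493, minus strand): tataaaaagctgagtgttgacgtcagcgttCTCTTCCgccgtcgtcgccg
EEF1B2 (chr2:206159865-206159914, plus strand): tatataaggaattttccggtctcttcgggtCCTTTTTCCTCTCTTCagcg
EIF3D (chr22:36529147-36529196, minus strand): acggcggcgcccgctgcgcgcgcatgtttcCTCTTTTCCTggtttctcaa
EIF3F (chr11:7987307-7987356, plus strand): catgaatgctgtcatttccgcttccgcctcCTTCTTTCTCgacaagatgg
EIF3M (chr11:32583801-32583850, plus strand): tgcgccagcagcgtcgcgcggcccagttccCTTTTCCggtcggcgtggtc
EIF2S3 (chrX:24054926-24054975, plus strand): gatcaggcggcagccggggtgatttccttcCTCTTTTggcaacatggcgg
EIF4B (chr12:53006426-53006475, plus strand): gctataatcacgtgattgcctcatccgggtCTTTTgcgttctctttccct
EIF5 (chr14:103334207-103334256, plus strand): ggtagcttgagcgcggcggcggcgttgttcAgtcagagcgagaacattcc
EIF4G2 (chr11:10807977-10808026, minus strand): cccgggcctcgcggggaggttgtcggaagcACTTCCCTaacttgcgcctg
EIF4E (chr4:98929114-98929163, minus strand): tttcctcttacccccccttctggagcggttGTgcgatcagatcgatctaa
EIF4G2 carries a pyrimidine run behind an A, EIF5 starts with an A followed by a purine, and EIF4E starts with a G. EEF1B2, EIF5 and EIF4G2 have 2 listed starts each, of which 1 is shown, and a RefSeq start need not be the one these cells use.

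Library totals ranged from 35739833 to 54915928 estimated counts, with 19080 to 23213 entries above 0. Levels below are normalised CPM, a count divided by the TMM-scaled total of its library. Each fold change is on the log2 scale, PMA against untreated, fitted with edgeR (quasi-likelihood), and p-values were adjusted after Benjamini and Hochberg over the 16451 genes tested. All 7 myeloid identity genes were detected, with summed levels of 1428 and 2295 CPM untreated and 13260 and 15480 CPM with PMA. ITGB2, the beta-2 integrin, carried most of that sum (927 and 933 CPM untreated, 10451 and 11987 CPM with PMA), CD33 overlapped between groups at 62.3 to 72.7 CPM, and LYZ was 136 and 905 CPM untreated and 211 and 126 CPM with PMA. CD3D, CD3E, CD3G, CD2, MS4A1, HBB, KRT8, KRT18 and COL1A1, which mark T, B, erythroid, epithelial and fibroblast cells, were listed at 0 in all 4 libraries. In such bulk libraries, fewer cells of a type and less RNA per cell cannot be told apart.

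Most factor mRNAs were at lower levels in the PMA libraries, but only EEF1B2, a subunit of the complex that recharges eEF1A with GTP, fell past the threshold. Of the 58 factors with enough counts to test, 1 was called lower and 0 were called higher, beside 2.02% and 4.29% of all genes tested (6.3% in either direction). At an unadjusted p under 0.05 there were 27 of 58, against 27% of all genes tested, of which 24 were lower (all genes: 12.5%) and 3 higher (14.6%). DESeq2 called 17 factors lower (all genes: 10.2%) and 3 higher (12.9%), and limma-voom called 7 lower (3.87%) and 0 higher (6.98%). In 33 of the 58, both PMA libraries lay below both untreated libraries, against 29.4% of all genes tested; in 6 both lay above, against 31%, and in the other 19 the groups overlapped. The 58 factors had a median log2 fold change of -0.67, with values from -2.10 to 1.42, while the median over all genes tested was 0.00 to 2 decimals. Among genes with a mean of 20 CPM or more, the 53 factors had a median of -0.71 and the 7285 genes a median of 0.11. Within lots, 39 factors were lower with PMA in both lots, against 35.9% of all genes tested, 6 were higher in both, against 37.8%, and 9 were at least 2-fold lower in both, against 14.6%. The median over the factors was -0.60 in lot 1 and -0.73 in lot 2. The elongation factors and their methyltransferases had a median of -1.13 (11 tested), and the initiation factors a median of -0.62 (47 tested). EIF1AY, EIF4E1B and EEF1A2, a start-codon factor, an oocyte-type cap-binding protein and the eEF1A form of muscle and neurons, were listed at 0 in all 4 libraries and not tested. A count of 0 allows up to 3 counts, or 0.0475 to 0.0921 CPM depending on the library, for counting error only.

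**Figure D1:**
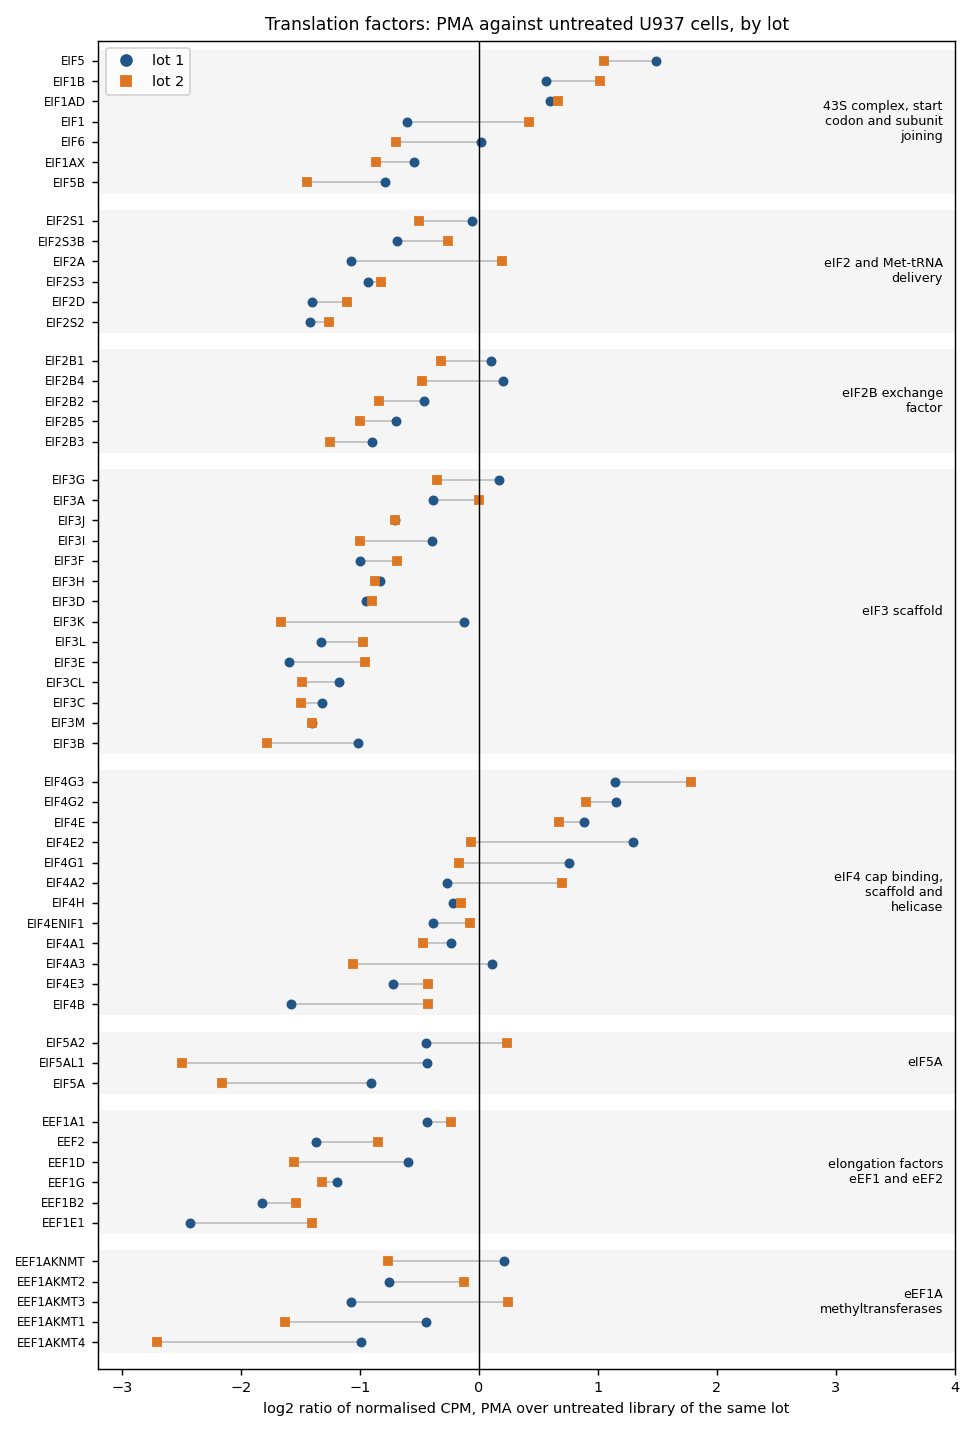
Each row is 1 of the 58 tested factors, grouped by role; the horizontal axis is the log2 ratio of normalised CPM, PMA over the untreated library of the same lot, with a circle for lot 1 and a square for lot 2. In 39 factors both lots lie below 0 and in 6 both lie above it.

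Summed over the 61 factors, lot 1 first, their share of all counts was 3.12% and 2.37% untreated and 1.55% and 1.39% with PMA. The groups did not overlap: 2.75% ± 0.536 (SD, n = 2) untreated and 1.47% ± 0.118 (SD, n = 2) with PMA, with a two-sided exact permutation p of 0.333, the smallest that 2 against 2 libraries can give. EEF1A1 and EEF2 carried much of this sum. Without EEF1A1 the share was 2.18%, 1.77%, 1.00% and 0.943% in the same order, so the gap did not rest on that gene.

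Among the elongation factors, the subunits of the eEF1B exchange complex and eEF2 were at lower levels with PMA, and EEF1A1 was not separated. EEF1B2 measured 286 and 237 CPM untreated and 80.9 and 81.7 CPM with PMA. Both PMA libraries were far below both untreated ones, and the means were 262 ± 34.9 and 81.3 ± 0.567 CPM (SD, n = 2). EEF1B2 fell by 1.69 ± 0.30 (SE) on the log2 scale, with an adjusted p of 0.0446. Blocking on lot ended that call (adjusted p = 0.0599), and it was not kept with no filter on low counts (0.0501), or without the PMA library of lot 1 (0.273) or of lot 2 (0.325); over 12 alternatives the adjusted p ran from 9.48e-06 to 0.325. The authors' deposited table gave EEF1B2 a q of 0.142, the smallest of any factor, and called 0 of the 61.

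EEF1G, the gamma subunit of the same exchange complex, measured 1571 and 1386 CPM untreated and 688 and 554 CPM with PMA (log2 fold change -1.25 ± 0.29 SE, adjusted p = 0.0690). EEF1D, its delta subunit, measured 191 and 356 CPM untreated and 127 and 121 CPM with PMA (-1.14 ± 0.40 SE, adjusted p = 0.152). In both genes the PMA libraries were the lower pair without passing the test, and the untreated lots of EEF1D lay far apart (-0.63 without the untreated library of lot 2). EEF2, the GTPase that moves the ribosome along the mRNA, measured 7231 and 5092 CPM untreated and 2800 and 2827 CPM with PMA (-1.13 ± 0.30 SE, adjusted p = 0.0850). EEF1E1, a small protein of the multi-tRNA synthetase complex, had the lowest fold change of the group, with 20.3 and 10.1 CPM untreated and 3.77 and 3.81 CPM with PMA (-2.00 ± 0.57 SE, adjusted p = 0.0992). These PMA values were close to each other in both genes, while the untreated lots differed.

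EEF1A1, which delivers aminoacyl-tRNA to the ribosome, measured 8225 and 5734 CPM untreated and 6063 and 4878 CPM with PMA. The PMA library of lot 1 lay between the untreated ones, and the log2 fold change was -0.35 ± 0.31 (SE, adjusted p = 0.536). Counts of EEF1A1 were 1.14 and 1.13 times those of EEF2 in the untreated libraries and 2.17 and 1.73 times with PMA, so the ratio within a library was higher in both PMA libraries. Per kilobase of the longest annotated transcript, EEF2 and EEF1A1 had the highest mean levels of the factors, at 1947 and 1572 CPM per kb untreated and 889 and 1232 CPM per kb with PMA. EEF1A1 shares sequence with 39 processed pseudogene entries, which held 23.8% to 27.2% of the summed counts of gene and pseudogenes in the 4 libraries, so its level is uncertain by that much. For EEF1B2 the 8 pseudogene entries held 16.3% at most.

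**Figure D2:**
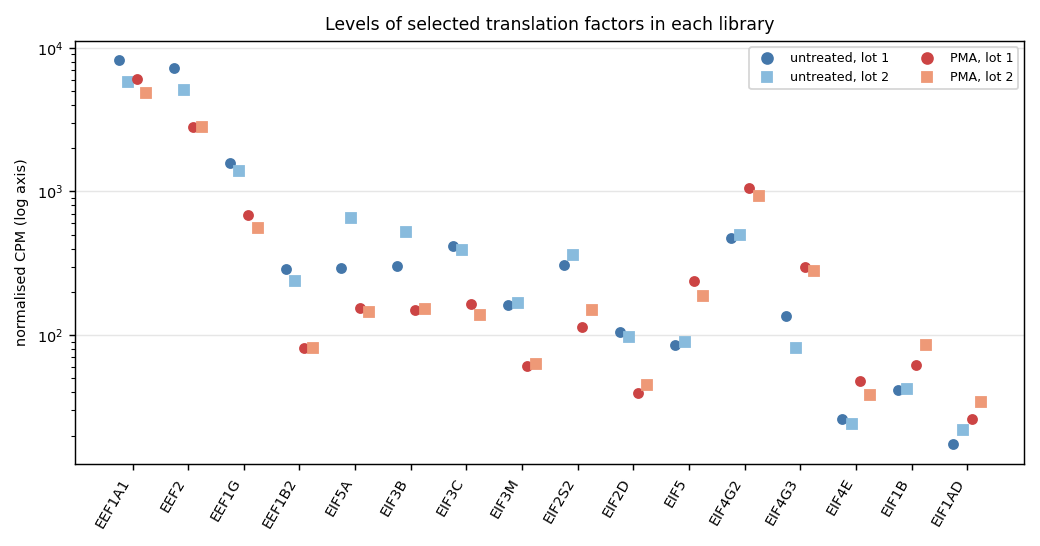
Normalised CPM on a log axis for 16 factors, 1 point per library (circles lot 1, squares lot 2; blue untreated, red and orange PMA). EEF2, EEF1G and EEF1B2 show both PMA points below both untreated points, the points of EEF1A1 overlap, and EIF5, EIF4G2 and EIF4G3 show both PMA points above.

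The 5 tested methyltransferases that modify lysines or the N-terminus of eEF1A had a median log2 fold change of -0.47. None passed edgeR's test, and 1, which was lower, had an unadjusted p under 0.05 (all genes: 12.5% lower). DESeq2 called 1 lower (10.2%) and limma-voom 0 (3.87%). EEF1AKMT4 measured 25.5 and 85.7 CPM untreated and 12.8 and 13.1 CPM with PMA, the lowest fold change of all factors (-2.10 ± 0.66 SE, adjusted p = 0.121). Its untreated lots differed widely, and the log2 ratio of PMA to untreated was -0.99 within lot 1 and -2.71 within lot 2; the fold change was -0.98 without the untreated library of lot 2. EEF1AKNMT, the most abundant of the group, measured 42.6 and 83.1 CPM untreated and 49.2 and 49.0 CPM with PMA, and its groups overlapped.

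The eIF3 complex, the scaffold that holds the small subunit during initiation, was the largest role group and had the most members below the untreated libraries. In 12 of its 14 tested genes (85.7%) both PMA libraries lay below both untreated ones, against 29.4% of all genes tested. In 0 both lay above, against 31%. EIF3C and EIF3CL, which are near-identical copies, are both among the 12. The share was similar among the elongation factors eEF1 and eEF2, with 5 of 6 tested genes below (83.3%). The median log2 fold change of the 14 eIF3 genes was -0.98. None of the 14 passed edgeR's test, and 9 had an unadjusted p under 0.05, all lower (all genes: 12.5% lower). DESeq2 called 7 lower (10.2%) and limma-voom 3 (3.87%). EIF3M, a subunit of the outer part of the complex, measured 161 and 166 CPM untreated and 60.9 and 62.7 CPM with PMA (-1.41 ± 0.29 SE, adjusted p = 0.0588, the smallest adjusted p of any factor that was not called). EIF3B, a core subunit, had the lowest fold change, with 303 and 522 CPM untreated and 150 and 152 CPM with PMA (-1.45 ± 0.38 SE, adjusted p = 0.0836). EIF3M was alike in the untreated lots and EIF3B was not.

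EIF3C measured 414 and 389 CPM untreated and 165 and 138 CPM with PMA (-1.41 ± 0.29 SE, adjusted p = 0.0589). EIF3CL measured 387 and 384 CPM untreated and 171 and 137 CPM with PMA (-1.32 ± 0.30 SE, adjusted p = 0.0655). The genes are near-identical copies and their counts stood at a ratio of 0.969 to 1.07 in every library, so how reads were divided between them is uncertain and they are not separate measurements. EIF3L, the most abundant subunit by CPM, measured 637 and 354 CPM untreated and 254 and 180 CPM with PMA (-1.19 ± 0.42 SE, adjusted p = 0.151). EIF3G, an RNA-binding subunit, had the highest fold change of the complex, with 188 and 322 CPM untreated and 211 and 252 CPM with PMA (-0.14, adjusted p = 0.856). EIF3A, the largest core subunit, also overlapped, with 246 and 123 CPM untreated and 188 and 123 CPM with PMA (-0.25, adjusted p = 0.786). EIF3A and EIF3G were the only subunits of the 14 whose groups overlapped. The remaining 7, EIF3D, EIF3E, EIF3F, EIF3H, EIF3I, EIF3J and EIF3K, had log2 fold changes from -1.32 to -0.71. Of these, EIF3K went from -1.02 to -0.25 and EIF3I from -0.73 to -0.39 without the untreated library of lot 2, and EIF3K to -1.58 without that of lot 1. EIF3L was at -0.77 without the untreated library of lot 1.

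The GTPase eIF2 carries the initiator tRNA, and all 3 of its subunit genes lay lower in both PMA libraries without passing the test. EIF2S2, the beta subunit, measured 306 and 359 CPM untreated and 114 and 149 CPM with PMA (-1.34 ± 0.32 SE, adjusted p = 0.0722). EIF2S3, the gamma subunit that binds GTP and the tRNA, measured 370 and 279 CPM untreated and 194 and 158 CPM with PMA (-0.88, adjusted p = 0.164). EIF2S1, the alpha subunit that the stress kinases phosphorylate, measured 94.0 and 98.7 CPM untreated and 90.3 and 69.6 CPM with PMA (-0.27, adjusted p = 0.655). The fold change of EIF2S2 was the lowest of the 3, and the difference between subunits was not tested. EIF2D, a non-canonical tRNA delivery factor, measured 104 and 97.7 CPM untreated and 39.5 and 45.3 CPM with PMA (-1.25, adjusted p = 0.0806). EIF2A and EIF2S3B, the latter an autosomal copy of EIF2S3 at 8.52 to 18.0 CPM, overlapped between groups. None of these 6 genes passed edgeR's test, and 3 had an unadjusted p under 0.05, all lower (all genes: 12.5% lower). DESeq2 called 2 lower (10.2%) and limma-voom 1 (3.87%).

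The exchange factor eIF2B, which reloads eIF2 with GTP, had 3 of its 5 subunit genes with both PMA libraries below both untreated ones. This was 60%, against 29.4% of all genes tested. EIF2B3, of the catalytic part, measured 36.0 and 38.1 CPM untreated and 19.2 and 15.9 CPM with PMA (-1.07, adjusted p = 0.144). EIF2B5, the catalytic subunit, measured 92.8 and 98.4 CPM untreated and 57.4 and 49.3 CPM with PMA (-0.84, adjusted p = 0.171). EIF2B1 and EIF2B4 overlapped, and EIF2B1, of the regulatory part, had the highest fold change, with 42.3 and 55.8 CPM untreated and 45.3 and 44.6 CPM with PMA (-0.13, adjusted p = 0.859). None of the 5 passed edgeR's test, and 2 had an unadjusted p under 0.05, both lower (all genes: 12.5% lower). DESeq2 called 1 lower (10.2%) and limma-voom 0 (3.87%).

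The genes grouped with the scanning complex and with subunit joining lay on both sides. EIF5, which makes eIF2 hydrolyse its GTP at the start codon, measured 84.8 and 89.8 CPM untreated and 238 and 186 CPM with PMA (1.28 ± 0.31 SE, adjusted p = 0.0745). EIF5B, the GTPase that joins the large subunit, measured 174 and 290 CPM untreated and 101 and 106 CPM with PMA (-1.17, adjusted p = 0.122; -0.75 without the untreated library of lot 2). The ratio of EIF5 to EIF5B counts was 0.486 and 0.310 in the untreated libraries and 2.36 and 1.75 with PMA, so the order of the counts was the opposite in the PMA libraries of both lots.

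EIF1 and EIF1B are near relatives that guard the choice of start codon. EIF1 measured 547 and 313 CPM untreated and 358 and 418 CPM with PMA (-0.15, adjusted p = 0.847). EIF1B measured 41.6 and 42.4 CPM untreated and 61.6 and 86.0 CPM with PMA (0.81, adjusted p = 0.223). EIF1 overlapped, while EIF1B and EIF1AD had both PMA libraries above both untreated ones; EIF1AD measured 17.3 and 21.8 CPM untreated and 26.2 and 34.5 CPM with PMA. EIF1AX, which works with EIF1 in scanning, measured 78.6 and 88.9 CPM untreated and 53.7 and 48.7 CPM with PMA (-0.71, adjusted p = 0.238). EIF6, which keeps the large subunit apart from the small one, overlapped at 169 and 336 CPM untreated and 170 and 207 CPM with PMA. None of these 7 genes passed edgeR's test. At an unadjusted p under 0.05, 1 was lower (all genes: 12.5%) and 1 higher (14.6%). DESeq2 called 1 lower (10.2%) and 1 higher (12.9%), and limma-voom 0 (3.87% and 6.98%).

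The eIF4 group, whose core members bind the cap and unwind the leader, was centred at 0. Over 12 tested genes the median fold change was 0.00 to 2 decimals. In 3 the PMA libraries lay above (all genes: 31%), in 2 below (29.4%), and 7 overlapped. With EIF5, EIF4G3 and EIF4G2 had the highest fold changes of the 58 factors. EIF4G3, the second eIF4G scaffold, measured 136 and 81.4 CPM untreated and 300.0 and 280.0 CPM with PMA (1.42 ± 0.37 SE, adjusted p = 0.0853). EIF4G2, also called DAP5, a scaffold that lacks the eIF4E-binding site, measured 475 and 496 CPM untreated and 1058 and 926 CPM with PMA (1.03 ± 0.28 SE, adjusted p = 0.0887). EIF4G1, the main scaffold, measured 231 and 294 CPM untreated and 392 and 262 CPM with PMA (0.32, adjusted p = 0.628). The first 2 were separated in both lots and EIF4G1 was not. Counts of EIF4G3 relative to EIF4G1 were 0.588 and 0.277 untreated and 0.766 and 1.07 with PMA, and those of EIF4G2 relative to EIF4G1 were 2.06 and 1.69 untreated and 2.70 and 3.54 with PMA. Both ratios were higher in both PMA libraries.

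EIF4E, the cap-binding protein, measured 25.9 and 24.0 CPM untreated and 47.8 and 38.3 CPM with PMA (0.78 ± 0.36 SE, adjusted p = 0.246). Its relatives EIF4E2 and EIF4E3 overlapped, the former with 34.1 and 83.3 CPM untreated and 83.7 and 79.5 CPM with PMA, the latter with 125 and 60.5 CPM untreated and 75.6 and 45.0 CPM with PMA. EIF4E was thus the cap-binding member with separated groups, without passing the test. The helicase EIF4A1 measured 635 and 637 CPM untreated and 538 and 461 CPM with PMA (-0.35, adjusted p = 0.495), and its paralogue EIF4A2 measured 162 and 102 CPM untreated and 135 and 165 CPM with PMA (0.18, adjusted p = 0.802). EIF4B, a helicase partner, had the lowest value of the group, with 380 and 250 CPM untreated and 127 and 185 CPM with PMA (-1.01, adjusted p = 0.174); its 9 pseudogene entries held 14.1% to 25.9% of the summed counts. None of the 12 passed edgeR's test. At an unadjusted p under 0.05, 2 were higher (all genes: 14.6%) and 1 lower (12.5%). DESeq2 called 2 higher (12.9%) and 0 lower (10.2%), and limma-voom 0 (6.98% and 3.87%).

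EIF5A, which carries the modified lysine hypusine and helps the ribosome form difficult peptide bonds, measured 291 and 651 CPM untreated and 155 and 145 CPM with PMA (-1.65 ± 0.47 SE, adjusted p = 0.0975). EIF5AL1, a near copy of EIF5A whose reads may be shared with it, measured 22.5 and 59.4 CPM untreated and 16.6 and 10.5 CPM with PMA (-1.60, adjusted p = 0.178). EIF5A2 measured 8.45 and 3.87 CPM untreated and 6.20 and 4.56 CPM with PMA (-0.20, adjusted p = 0.882). EIF5A and EIF5AL1 had both PMA libraries below both untreated ones, with the untreated library of lot 2 the highest, and EIF5A2 overlapped. Without that library the log2 fold changes of EIF5A and EIF5AL1 were -0.96 and -0.73, and without the untreated library of lot 1 they were -2.18 and -2.19. None of the 3 passed edgeR's test, and 2 had an unadjusted p under 0.05, both lower (all genes: 12.5% lower). DESeq2 called 1 lower (10.2%) and limma-voom 0 (3.87%).

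Genes that act on these factors, work beside them or respond to translation control, which are no members themselves, are given by lists of known function. Among them EIF4EBP1, MLST8, SRM, PHGDH and PSAT1 fell and DDIT4, EIF2AK2, ATF3 and CEBPB rose. In the list of cap-binding control by mTOR, MNK and S6K, 1 of 14 tested genes was called higher and 2 lower. The shares over all genes tested were 4.29% and 2.02%. DESeq2 called 3 higher and 2 lower (all genes: 12.9% and 10.2%), and limma-voom 2 higher and 2 lower (6.98% and 3.87%). EIF4EBP1, the repressor that sequesters eIF4E, measured 348 and 395 CPM untreated and 32.1 and 51.0 CPM with PMA, and fell by 3.16 ± 0.38 (SE, adjusted p = 0.0253; 0.0647 without the PMA library of lot 1). Counts of EIF4EBP1 were 13.4 and 16.5 times those of EIF4E in the untreated libraries and 0.672 and 1.33 times with PMA. The ratio was thus lower in both PMA libraries, but counts of genes of unlike length do not rank their levels. Per kilobase of the longest annotated transcript, EIF4EBP1 had mean levels of 365 CPM per kb untreated and 40.7 with PMA. EIF4E had 2.17 and 3.73 CPM per kb, so its repressor had the higher level in both groups by this measure. EIF4EBP2 overlapped, with 189 and 178 CPM untreated and 235 and 186 CPM with PMA, and EIF4EBP3 was at 2.55 CPM or less. MLST8, a subunit of the mTOR complexes, measured 185 and 181 CPM untreated and 42.2 and 48.8 CPM with PMA and fell by 2.01 ± 0.31 (SE, adjusted p = 0.0348; 0.231 and 0.229 without the PMA library of lot 1 or lot 2). DDIT4, an inhibitor of mTOR complex 1, measured 15.4 and 11.6 CPM untreated and 60.9 and 95.8 CPM with PMA and rose by 2.54 ± 0.43 (SE, adjusted p = 0.0398). The DDIT4 call was not kept with the lot as a block (0.0590), nor without the untreated library of lot 2 (0.0524) or the PMA library of lot 1 (0.0855) or lot 2 (0.211). The authors' deposited table called EIF4EBP1 (q = 0.000123) and did not call MLST8 (q = 0.0537) or DDIT4 (q = 0.0529). EEF2K, which phosphorylates and inhibits eEF2, overlapped at 28.3 and 20.9 CPM untreated and 28.6 and 21.5 CPM with PMA.

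**Figure D3:**
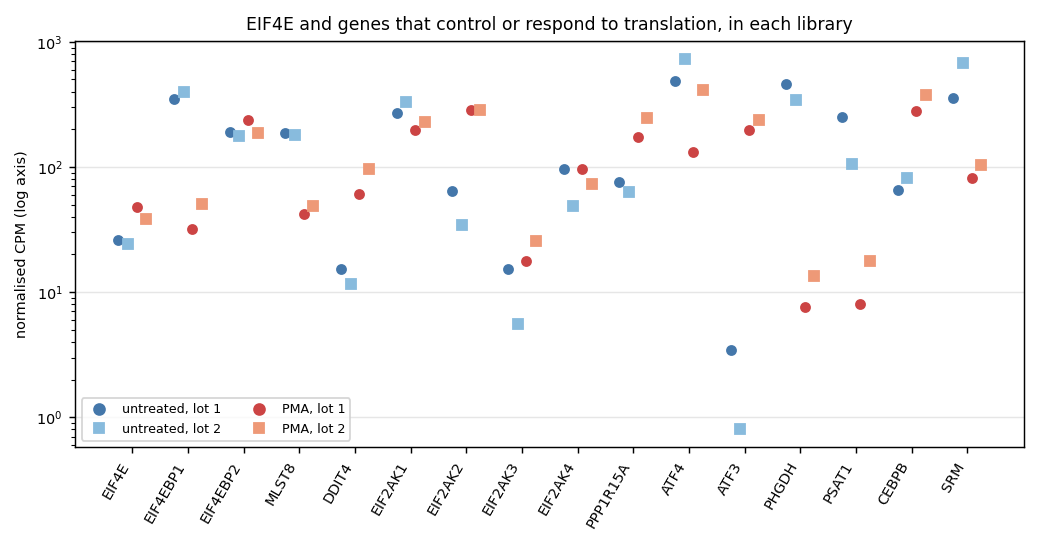
Normalised CPM on a log axis for the factor EIF4E and genes that control or respond to translation, 1 point per library. Circles are lot 1 and squares lot 2, with blue for untreated and red and orange for PMA. EIF4EBP1, MLST8 and SRM lie lower and EIF2AK2 and DDIT4 higher in both PMA libraries, and the points of EIF4EBP2 and EIF2AK4 overlap.

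In the list of eIF2 alpha kinases and phosphatase subunits, 1 of 9 tested genes was called higher and 0 lower (all genes: 4.29% and 2.02%). At an unadjusted p under 0.05, 2 were higher and 1 lower (all genes: 14.6% and 12.5%). DESeq2 called 2 higher and 1 lower (12.9% and 10.2%), and limma-voom 2 higher and 0 lower (6.98% and 3.87%). EIF2AK2, the kinase PKR that responds to double-stranded RNA, measured 64.1 and 34.1 CPM untreated and 284 and 283 CPM with PMA and rose by 2.53 ± 0.42 (SE, adjusted p = 0.0393). Without the PMA library of lot 1 or lot 2 its adjusted p was 0.102 and 0.109. The kinases EIF2AK1, EIF2AK3 and EIF2AK4 had log2 fold changes of -0.49, 1.05 and 0.23 and adjusted p-values of 0.371, 0.364 and 0.798. Targets of the integrated stress response, the programme that follows eIF2 alpha phosphorylation, went in both directions, with 2 of 12 called higher and 2 lower. Over all genes tested the shares were 4.29% and 2.02%. For these 12, DESeq2 called 3 higher and 3 lower (all genes: 12.9% and 10.2%), and limma-voom 2 higher and 2 lower (6.98% and 3.87%). PHGDH, the first enzyme of serine synthesis, measured 457 and 345 CPM untreated and 7.55 and 13.3 CPM with PMA and fell by 5.26 ± 0.48 (SE, adjusted p = 0.0202). PSAT1, the next enzyme, measured 248 and 106 CPM untreated and 8.07 and 17.7 CPM with PMA and fell by 3.78 ± 0.66 (SE, adjusted p = 0.0426), a call not kept with the lot as a block (0.0686) or without the PMA library of lot 1 (0.0858) or lot 2 (0.0518). ATF3, a stress transcription factor, measured 3.47 and 0.811 CPM untreated and 197 and 237 CPM with PMA and rose by 6.65 ± 0.87 (SE, adjusted p = 0.0274). CEBPB, a transcription factor also known for its part in macrophage differentiation, measured 65.7 and 81.7 CPM untreated and 278 and 373 CPM with PMA and rose by 2.14 ± 0.34 (SE, adjusted p = 0.0364; 0.0976 and 0.195 without the PMA library of lot 1 or lot 2). PHGDH and PSAT1 thus fell while ATF3 and CEBPB rose. The transcription factor ATF4, also of this list, lay lower with PMA without passing the test (488 and 726 CPM untreated, 133 and 412 CPM with PMA, -1.16, adjusted p = 0.304), and DDIT3 overlapped. SLC7A11 lay higher (27.9 and 7.14 CPM untreated, 366 and 103 CPM with PMA, 3.74, adjusted p = 0.0824). ASNS lay lower (45.0 and 1.97 CPM untreated, 0.890 and 0.260 CPM with PMA, -5.37, adjusted p = 0.122). Neither passed edgeR's test, while the authors' deposited table called both (q = 0.00256 and 0.0461).

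Hypusine and diphthamide are the modifications of eIF5A and eEF2. The list of their synthesis genes also holds the polyamine regulators OAZ1 and AZIN1 and the eEF2 methyltransferase EEF2KMT. Of its 16 tested genes 0 were called higher and 1 lower, with 9 below, 2 above and 5 overlapping. EEF2KMT is among the 9. The shares over all genes tested were 4.29% called higher, 2.02% called lower, 29.4% below and 31% above. At an unadjusted p under 0.05, 5 were lower and 0 higher (all genes: 12.5% and 14.6%). DESeq2 called 3 lower and 0 higher (10.2% and 12.9%), and limma-voom 1 lower and 0 higher (3.87% and 6.98%). SRM, the spermidine synthase that supplies the hypusine precursor, measured 353 and 681 CPM untreated and 81.9 and 103 CPM with PMA and fell by 2.48 ± 0.44 (SE, adjusted p = 0.0436; 0.140 and 0.122 without the PMA library of lot 1 or lot 2). EIF5A and SRM both had their highest level in the untreated library of lot 2. None of 7 poly(A)-binding genes, 7 termination and recycling genes or 9 mitochondrial translation factors passed edgeR's test, and 0, 1 and 2 of them had an unadjusted p under 0.05. DESeq2 called 0, 1 and 2 of them, all lower, and limma-voom 0, 0 and 1. The shares over all genes tested were 27% at that unadjusted p, 10.2% lower with DESeq2 and 3.87% lower with limma-voom. PABPC1, the main poly(A)-binding protein, measured 2814 and 1864 CPM untreated and 1459 and 1246 CPM with PMA (-0.79, adjusted p = 0.206). ABCE1, which splits ribosomes after termination, measured 124 and 85.9 CPM untreated and 41.6 and 37.2 CPM with PMA (-1.41, adjusted p = 0.0803). TUFM, the mitochondrial counterpart of eEF1A, measured 436 and 626 CPM untreated and 183 and 145 CPM with PMA (-1.70, adjusted p = 0.0558). Each was named for the smallest p of its list, and all 3 had both PMA libraries below both untreated ones. Over the 3 lists, both PMA libraries lay below in 3 of 7, 4 of 7 and 4 of 9 genes, and above in 1 each. The shares over all genes tested were 29.4% and 31%.

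The pyrimidine start shown above was more frequent among the factors than among all tested genes with a window. A C at the start followed by at least 4 letters C or T was found in 13 of the 49 factors with a window (26.5%), in 7.43% of the 10233 tested genes with a window and in 4.07% of all 35116 windows. Shares of factors and genes count any listed start, and shares of windows count each start, so only the former are alike in measure. The 13 were EIF2A, EIF2D, EIF2S3, EIF2S3B, EIF3D, EIF3F, EIF3K, EIF3M, EIF4A2, EIF4B, EEF1A1, EEF1B2 and EEF2. Their median log2 fold change was -0.93, with 9 below, 0 above and 4 overlapping. The other 34 tested factors with a window had a median of -0.43, with 17 below, 6 above and 11 overlapping. Over all tested genes the median was -0.21 with such a start and 0.06 without it, and both PMA libraries lay below both untreated ones in 38.6% and 28.5%. EEF1A1 and EIF4A2 have the start and overlapped between groups, and EIF3B and EIF5A lack it and had log2 fold changes of -1.45 and -1.65. The palindrome CACGTG, which the transcription factor MYC is known to bind and which reads alike on both strands, was found within the 300-base window of 11 of the 49 factors (22.4%), 12.6% of the tested genes and 7.26% of all windows. Factors with it had a median of -0.50 and those without it a median of -0.62. These shares are descriptions of sequence, were not tested, and say nothing of which start or site is used.

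**Figure D4:**
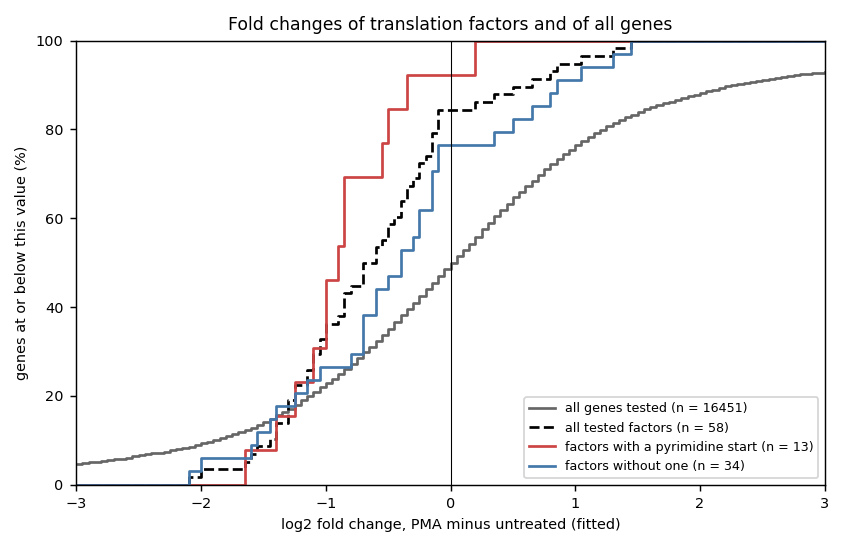
Cumulative share of genes (vertical axis) at or below a log2 fold change, PMA against untreated (horizontal axis), for the 58 tested factors and for all 16451 genes tested. The curve of the factors lies to the left, with a median of -0.67 against 0.00, and the 13 factors with a pyrimidine start and the 34 without one are drawn apart.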

How the data were processed

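RNA of 4 U937 libraries was sequenced on an Ion Proton. Per the submitters' processing notes, HISAT2 2.1.0 and StringTie 2.1.1 were used. For genome build, strand setting and counting options, nothing is stated (not given in the sources used here), and overlapping or antisense genes may share reads. The deposited table holds estimated counts per gene, all whole numbers. The authors' second table holds a scaled signal per gene, a log2 ratio, and p-values and q-values, whose test is not stated; only its calls, ratios and q-values were used. Counts were tested with edgeR 4.0.16 (TMM, filterByExpr, quasi-likelihood test, Benjamini-Hochberg, threshold 0.05, limma 3.58.1 and R 4.3.3), without a block, on all genes, after a check on simulated data. DESeq2 1.42.0, limma-voom, other scalings and filters, a lot block, pseudogene counts and leaving out each library were alternatives. The titles' lot numbers pair the libraries. Deviations from the group means correlated at 0.246 across genes within a lot. With 2 libraries per group the deviations mirror each other, so both lots give this value and the crossed pairs give -0.246. It does not tell whether the lots were cultured separately. Library totals of 35739833 to 54915928 counts set the counting precision, while 2 libraries per group limit the tests. Lengths are those of the longest GENCODE 29 transcript. Values per library were given for factors called, and in each role group for those with the smallest p, the extreme fold changes or the highest level, and for paralogues; in pathway lists for genes called or, with none, the smallest p; others named were chosen after their values were seen. The members and lists were chosen with earlier results of these data known.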

Additional observations from a re-analysis of the deposited data

How the results depend on the processing

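With 2 libraries per group, the counts of calls depended on the tool and on single libraries. The count of factors lower with PMA was 1, and became 0 without the filter, 0 with the lot as a replicate block, 6 with a filter of 5 CPM in 2 libraries, 7 with limma-voom, 17 with DESeq2 and 0 to 12 when a library was left out (12 without the untreated library of lot 1, 2 without that of lot 2, and 0 without either PMA library). The count of factors higher was 0, became 3 with DESeq2, and was 0 to 1 when a library was left out. Over all genes, 705 were higher, against 2116 with DESeq2, 1149 with limma-voom and 424 to 1830 when a library was left out; 332 were lower, against 721 with the 5 CPM filter, 1677 with DESeq2, 636 with limma-voom and 79 to 1085 when a library was left out. The pairing by lot gave 591 higher and 244 lower; among named genes it ended the calls of EEF1B2, DDIT4 and PSAT1 and changed no other. The median of the factors, -0.67, was -0.83 with upper-quartile scaling, which moved the median of all genes to -0.165, and -0.82 to -0.65 when a library was left out. Chosen after seeing the data, other scalings gave 32 to 38 factors with both PMA libraries below both untreated ones (29.4% to 33.3% of all genes) and 6 above (27.3% to 31.2%), and leaving out a library gave 35 to 42 below (37.2% to 42.7% of all genes) and 6 to 12 above (37.3% to 43.3%); the named pathway genes were also refitted under these settings. No factor changed sign under another scaling, filter, tool or block. Leaving out a library did change the sign of 13 factors, none of them called, with log2 fold changes from -0.66 to 0.28 for EIF3A, -0.89 to 0.16 for EIF6, -0.54 to 0.30 for EIF3G, -0.65 to 0.41 for EIF5A2, -0.0698 to 0.59 for EIF4G1, -0.82 to 0.20 for EEF1AKNMT, -0.43 to 0.10 for EIF2B4, -0.0910 to 1.26 for EIF4E2, -0.59 to 0.10 for EIF4ENIF1, -0.49 to 0.25 for EIF1, -0.12 to 0.49 for EIF4A2, -1.06 to 0.12 for EIF2A and -0.37 to 0.0860 for EIF2B1; the same held for EEF2K (-0.26 to 0.23), EIF2AK4 (-0.18 to 0.74) and EIF4EBP2 (-0.0448 to 0.37). EEF2K, at 0.03, was -0.13 with upper-quartile scaling and -0.0278 with the 5 CPM filter. The cause was not tested. The share of counts from the factors kept its direction under every setting run.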
